A study of Mus musculus with 4 samples.

Results

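The homeobox genes of the Hox clusters and 4 further families of limb patterning factors (Meis, Pbx, Irx and Tbx) were examined in stromal cells sorted from the mouse femur. Members were all rows of the count table whose symbol begins with Hoxa, Hoxb, Hoxc or Hoxd, Meis, Irx or Tbx followed by a digit, or is Pbx followed by a single digit. This gave 57 of 17230 rows, of which 33 were Hox rows and 24 belonged to the other families. The Hox rows were 32 homeobox genes and 1 antisense transcript, Hoxa11as, which the symbol rule takes in and which is counted with them below. Hoxb8, Hoxb13, Hoxd1, Hoxd10, Hoxd11, Hoxd12, Hoxd13, Irx4 and Irx6 are not analysed here, so the posterior end of HoxD is missing from every statement on position.

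Bulk RNA sequencing was run on 2 groups of 2 libraries. The Hes1-derived libraries (replicates 1 and 3) came from mice of genotype Cxcl12(GFP/+); Hes1(CreER/+); R26R(tdTomato/+), and the Fgfr3-derived libraries (replicates 2 and 3) from Cxcl12(GFP/+); Fgfr3-iCreER; R26R(tdTomato/+). All mice had received tamoxifen at embryonic day 12.5 and were sampled at postnatal day 21. GFP reports the Cxcl12 locus, which marks CXCL12-abundant reticular (CAR) cells of the marrow, and tdTomato is a lasting mark of cells in which the Cre was active, so all groups carry a Cxcl12 allele with GFP and a single recombination pulse. The series title sets perichondrium against chondrocytes as the fetal sources, and the comparison asks how the marrow stroma of these sources differs. Only the first group carries CreER at a Hes1 allele, so genotype and source cannot be told apart. The labels do not say whether a library is from 1 mouse or a pool, so p-values measure the spread between these libraries, which may be technical. The cell type label names a gate on both GFP and tdTomato, while the protocol names tdTomato only and a droplet loading. The distal growth plates and the proximal ends of the bones were removed before digestion.

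Hox genes lie in 4 clusters (HoxA to HoxD), and genes at the same rank of different clusters are paralogues. Their order along a cluster matches their order of use along the body and limb: low-numbered genes act anteriorly, and the highest-numbered genes act posteriorly and, in the limb, distally. In the mouse limb the group at position 10 is needed for the femur and humerus, that at 11 for the bones beyond the knee and elbow, and that at 13 for the hand and foot, and adult skeletal stroma keeps a regional Hox pattern. Meis and Pbx proteins are TALE homeodomain cofactors that bind DNA with Hox proteins, Irx genes encode Iroquois homeodomain factors and Tbx genes encode T-box factors, of which Tbx4 serves the hindlimb and Tbx5 the forelimb.

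The promoters below belong to Hoxa10, the Hox gene with the most reads, its neighbour Hoxa11, the antisense transcript Hoxa11as (Hoxa11os in the annotation), and Tbx18, since Hoxa11, Hoxa11as and Tbx18 differed between the groups. Each sequence is from RefSeq (build GRCm38.p6), runs 5′ to 3′ on the gene's strand and covers 300 bases, 250 before and 50 after the start site. They lie at chr6:52240805-52241104 (minus strand), chr6:52245761-52246060 (minus strand), chr6:52244993-52245292 (plus strand) and chr9:87731211-87731510 (minus strand). Capitals mark a match to 1 of 3 motifs.
Hoxa10: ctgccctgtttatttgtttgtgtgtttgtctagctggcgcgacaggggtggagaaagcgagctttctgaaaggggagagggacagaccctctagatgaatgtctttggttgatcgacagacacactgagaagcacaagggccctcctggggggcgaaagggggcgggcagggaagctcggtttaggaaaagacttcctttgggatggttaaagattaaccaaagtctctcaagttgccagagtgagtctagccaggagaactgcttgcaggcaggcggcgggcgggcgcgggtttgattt
Hoxa11: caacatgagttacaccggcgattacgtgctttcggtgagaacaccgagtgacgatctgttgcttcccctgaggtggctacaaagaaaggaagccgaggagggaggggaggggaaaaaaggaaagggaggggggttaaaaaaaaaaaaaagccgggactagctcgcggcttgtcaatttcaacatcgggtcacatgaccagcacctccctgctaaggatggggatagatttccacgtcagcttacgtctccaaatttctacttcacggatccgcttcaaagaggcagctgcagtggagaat
Hoxa11as: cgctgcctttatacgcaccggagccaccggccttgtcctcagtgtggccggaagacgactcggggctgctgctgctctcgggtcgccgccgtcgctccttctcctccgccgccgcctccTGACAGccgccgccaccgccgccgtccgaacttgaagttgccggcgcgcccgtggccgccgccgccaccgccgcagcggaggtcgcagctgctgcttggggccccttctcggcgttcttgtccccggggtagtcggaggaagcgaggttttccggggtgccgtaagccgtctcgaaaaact
Tbx18: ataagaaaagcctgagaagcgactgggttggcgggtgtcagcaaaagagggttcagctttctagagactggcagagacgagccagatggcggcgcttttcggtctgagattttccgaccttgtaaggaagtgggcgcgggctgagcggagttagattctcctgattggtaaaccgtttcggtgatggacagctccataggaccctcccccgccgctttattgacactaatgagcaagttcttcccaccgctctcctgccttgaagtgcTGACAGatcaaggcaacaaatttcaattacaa
The motifs, sought on both strands, were TGATNNAT for Hox with Pbx, TGACAG for Meis and GGTGTGA for T-box proteins. The Meis motif stands once in the Hoxa11as window, at position −131 from the start site, and once in the Tbx18 window, at position 18. None of the motifs is written in the Hoxa10 and Hoxa11 windows shown. RefSeq promoters were matched for 33 of the 57 members (37 promoters), and TGATNNAT was found in 10.8% of them, TGACAG in 16.2% and GGTGTGA in 2.70%. Among all 32851 promoters the shares were 8.85%, 19.2% and 3.98%.

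Libraries held 22745128 to 26804832 counted reads. Cxcl12, the defining stromal gene of the sort, stood at 7057 and 4180 CPM (counts scaled to a common library size with TMM factors) in Hes1-derived replicates 1 and 3, against 9764 and 7028 CPM in Fgfr3-derived replicates 2 and 3. Reads of blood cells were also present, and more so in the Hes1-derived libraries. Of 15 tested pan-leukocyte markers 10 were higher in edgeR, against 5.24% of all genes. Their summed levels were 7276 and 8464 CPM in Hes1-derived against 2050 and 4428 CPM in Fgfr3-derived libraries. Stroma markers summed to 26660 and 17380 CPM in Hes1-derived against 40450 and 27510 CPM in Fgfr3-derived libraries. Of these 27 markers 2 were lower in edgeR, against 6.56% of all genes. Osteoblast markers, which include Dlx5 named below, were lower in 11 of 16 tested, against the same 6.56%. They summed to 6016 and 5817 CPM in Hes1-derived against 30030 and 35580 CPM in Fgfr3-derived libraries. Of 16 tested chondrocyte markers 0 were lower and 1 was higher in edgeR, and their sums overlapped, at 827 and 2722 CPM in Hes1-derived against 4415 and 659 CPM in Fgfr3-derived libraries. No marker row was at 0 in all 4 libraries. The part of any such cell type in the differences below was not tested, and fewer cells of a type and less RNA per cell cannot be told apart in bulk libraries. Scaling to 27 stroma markers or to the GFP transgene moved the median of all genes by 0.64 and 0.86 on the log2 scale, and the calls that these scalings end or add are given below.

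Most of the Hox level of these cells lay in the HoxA and HoxC clusters, with Hoxa10 far above any other Hox gene. Levels between genes are compared as CPM per kb of exon, in exon lengths of GENCODE M21. Hoxa10 (chr6:52231197-52240854) led all Hox genes in every library, at 17.8 and 11.6 CPM per kb in Hes1-derived replicates 1 and 3, against 39.3 and 25.6 CPM per kb in Fgfr3-derived replicates 2 and 3. It made up 36.9% and 40.3% of the summed Hox level in Hes1-derived against 40.4% and 34.2% in Fgfr3-derived libraries. Hoxc10 followed in the mean of all libraries, at 4.24 and 2.55 CPM per kb in Hes1-derived against 7.15 and 5.49 CPM per kb in Fgfr3-derived libraries. Hoxa9 stood next, at 3.96 and 1.48 CPM per kb in Hes1-derived against 5.65 and 4.68 CPM per kb in Fgfr3-derived libraries, and overlapped with Hoxc10 across libraries.

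**Figure D1:**
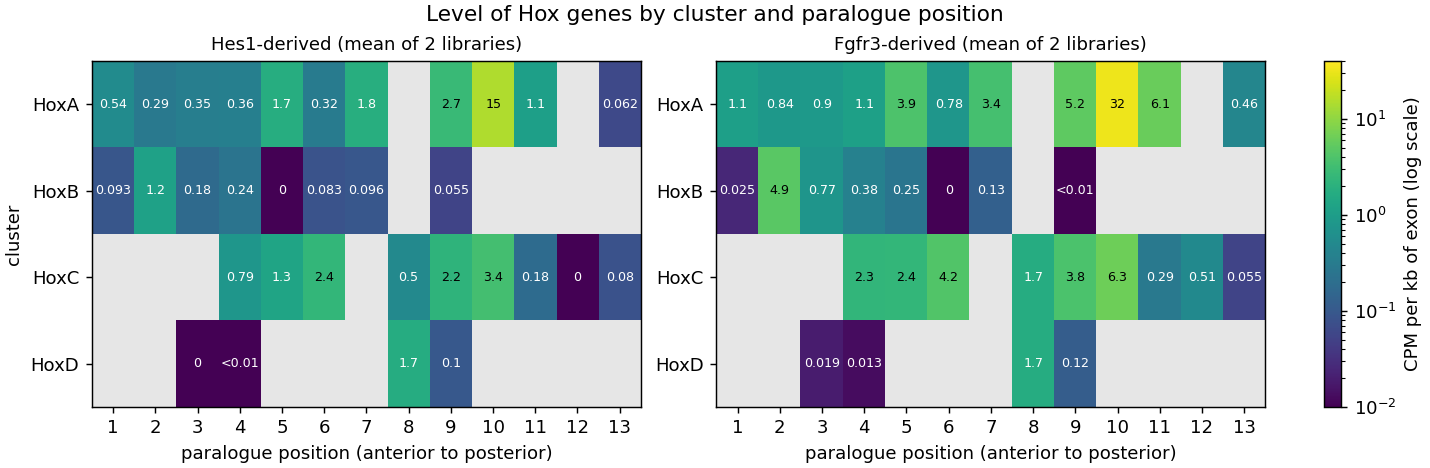
Mean level of each Hox gene in CPM per kb of exon (colour, log scale, with the value printed) by cluster (rows) and paralogue position (columns), in Hes1-derived libraries on the left and Fgfr3-derived libraries on the right, each the mean of 2 libraries. Grey cells have no gene or are not analysed here, and position 10 of HoxA is the brightest cell of both maps.

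Position 10 held 18.1 CPM per kb in Hes1-derived against 38.8 CPM per kb in Fgfr3-derived libraries, as the summed mean of Hoxa10 and Hoxc10. Its neighbour at position 9 held 5.05 CPM per kb in Hes1-derived against 9.12 CPM per kb in Fgfr3-derived libraries. Position 11 held 1.27 CPM per kb in Hes1-derived against 6.39 CPM per kb in Fgfr3-derived libraries. Beyond position 11 the level was low, at 0 CPM per kb in Hes1-derived against 0.51 CPM per kb in Fgfr3-derived libraries for position 12 and at 0.14 CPM per kb in Hes1-derived against 0.51 CPM per kb in Fgfr3-derived libraries for position 13. The anterior positions 1 to 4 were not silent. Among them position 2, with Hoxb2 as its main gene, held 1.46 CPM per kb in Hes1-derived against 5.69 CPM per kb in Fgfr3-derived libraries.

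As shares of the summed Hox level, the posterior positions 9 to 13 took 65.4% and 61.1% in Hes1-derived replicates 1 and 3, against 64.9% and 63.5% in Fgfr3-derived replicates 2 and 3, so the groups overlapped. This majority rested on Hoxa10. Without that gene the posterior share was 45.1% and 34.8% in Hes1-derived against 41.1% and 44.5% in Fgfr3-derived libraries. The central positions 5 to 8 took 23.6% and 29.6% in Hes1-derived against 22.4% and 20.2% in Fgfr3-derived libraries. The anterior positions took 11.1% and 9.38% in Hes1-derived against 12.7% and 16.4% in Fgfr3-derived libraries. The central share was thus higher and the anterior share lower in both Hes1-derived libraries, with too few libraries for an exact permutation test to pass. HoxA held 61.2% and 63.9% of the level in Hes1-derived against 67.2% and 63.0% in Fgfr3-derived libraries, and HoxC held 29.2% and 26.3% in Hes1-derived against 24.8% and 25.4% in Fgfr3-derived libraries. HoxB held 5.05% and 4.84% in Hes1-derived against 5.64% and 9.80% in Fgfr3-derived libraries. HoxD, here mainly Hoxd8, held 4.55% and 4.99% in Hes1-derived against 2.34% and 1.86% in Fgfr3-derived libraries. The HoxB share was thus lower, and the HoxC and HoxD shares higher, in both Hes1-derived libraries. A share also depends on the summed Hox level. That level was 48.2 and 28.9 CPM per kb in Hes1-derived against 97.3 and 74.8 CPM per kb in Fgfr3-derived libraries, while the level of Hoxd8 overlapped between the groups.

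Hindlimb factors were read alongside. Tbx4, the hindlimb T-box gene, had 137 and 28 reads in Hes1-derived against 42 and 103 reads in Fgfr3-derived libraries. Tbx5, its forelimb counterpart, had 2 and 2 reads in Hes1-derived against 1 and 4 reads in Fgfr3-derived libraries. Pitx1, which directs hindlimb identity upstream of Tbx4, stood at 16.9 and 7.33 CPM in Hes1-derived against 23.8 and 46.7 CPM in Fgfr3-derived libraries, and its difference did not pass (log2 fold change −1.54 ± 0.47, SE; edgeR adjusted p = 0.077).

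The groups were compared with edgeR's quasi-likelihood test across 14330 genes with Benjamini-Hochberg adjustment, and each log2 fold change is Hes1-derived over Fgfr3-derived. Of 33 Hox rows 25 passed the filter on low counts, and Hoxa11, its antisense transcript Hoxa11as, Hoxb2 and Hoxb5 were lower in Hes1-derived libraries while 0 were higher. Across all genes 6.56% were lower and 5.24% higher by the same rule. Of the 25, Hoxa6, Hoxa13, Hoxb5 and Hoxc12 passed the filter through the Fgfr3-derived libraries only, so their direction was set by the filter. A gene was taken to pass through both groups if at least 1 library of each group had 10 or more reads. Hoxa2 and Hoxc11 met this with only 1 Hes1-derived library, so the filter may still have shaped their direction. Over the other 21 the count was 3 lower, which includes both Hoxa11 and Hoxa11as, against 6.45% of the 14039 genes that passed through both groups. The median log2 fold change of the 21 was −1.14, against −0.025 over all genes. At an unadjusted p under 0.05 there were 11 of the 21, against 29.4% of the genes that passed through both groups and 30.1% of all genes. In 16 of the 21 both Hes1-derived libraries lay below both Fgfr3-derived libraries, against 31.7% of the genes that passed through both groups and 32.1% of all genes, and in 5 the groups overlapped. DESeq2 called 8 of the 25 lower and 0 higher, where it called 10.9% of all genes lower. The count of Hox rows lower was 0 after scaling to the GFP transgene, where 0.133% of all genes were lower. It changed as well with a library left out, as did the count over all genes (ranges below).

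**Figure D2:**
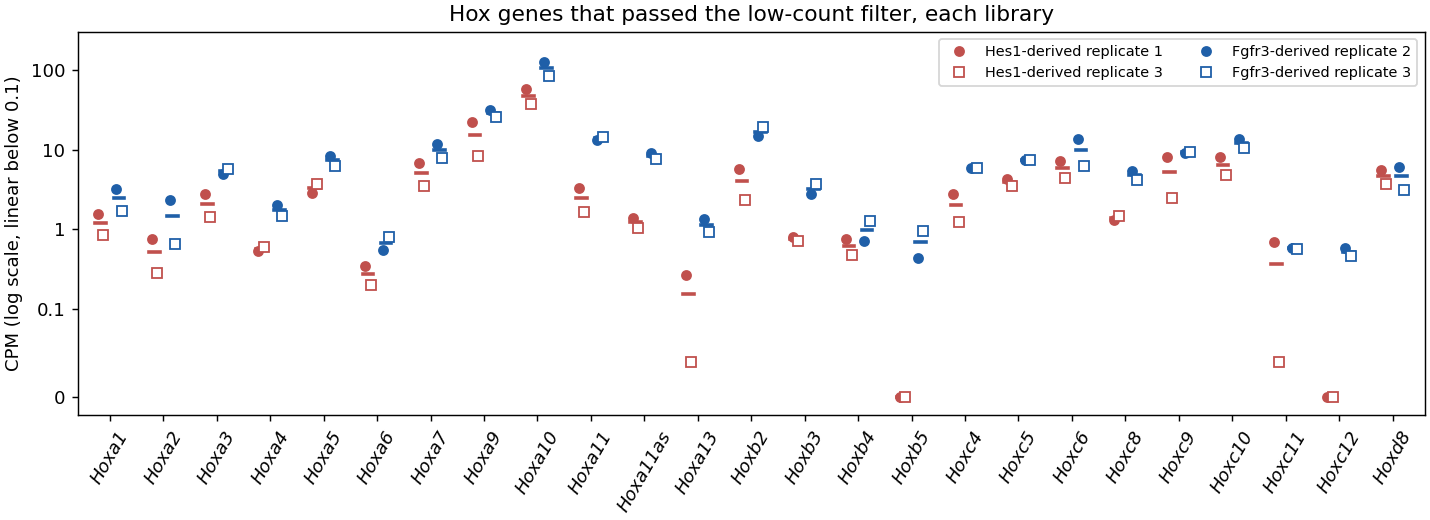
CPM (log scale, linear below 0.1) of each of the 25 tested Hox rows in every library, with Hes1-derived libraries left of Fgfr3-derived libraries. Bars are the means of 2 libraries. In 20 of the rows both Hes1-derived points lie below both Fgfr3-derived points, against 32.1% of all genes. Of these 20 rows, 4 passed the filter through Fgfr3-derived libraries only.

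Hoxa11 (chr6:52242106-52245810) had 3.30 and 1.65 CPM in Hes1-derived replicates 1 and 3, against 13.3 and 14.6 CPM in Fgfr3-derived replicates 2 and 3. Both Hes1-derived values lay far under both others, a 5.64-fold difference (log2 fold change −2.50 ± 0.44, SE; edgeR adjusted p = 0.021). Hoxa11as (chr6:52244393-52249799) is a non-coding transcript of the opposite strand, and in mouse limb buds it is known to lie where Hoxa11 is not. It had 1.41 and 1.05 CPM in Hes1-derived against 9.03 and 7.61 CPM in Fgfr3-derived libraries (−2.76 ± 0.44; edgeR adjusted p = 0.019). The 2 transcripts thus fell together, at 42.7 and 63.4 Hoxa11as reads per 100 Hoxa11 reads in Hes1-derived against 67.8 and 52.1 in Fgfr3-derived libraries. Their exons share 800 bases and the strand setting of the counting is not given in the sources used here, so their reads cannot be told apart there. After scaling to stroma markers both were still lower, at −1.97 (edgeR adjusted p = 0.032) and −2.14 (edgeR adjusted p = 0.036), and after scaling to the GFP transgene neither passed, at −1.83 and −1.97 (edgeR adjusted p = 0.19 and 0.19). Without Hes1-derived replicate 3 neither passed (edgeR adjusted p = 0.062 and 0.059), and without Fgfr3-derived replicate 2 Hoxa11as did not (edgeR adjusted p = 0.054).

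Hoxb2 (chr11:96350525-96354012), known for its role in the hindbrain, had 5.81 and 2.34 CPM in Hes1-derived against 14.7 and 19.2 CPM in Fgfr3-derived libraries, which do not overlap. The difference was 4.16-fold (−2.06 ± 0.48; edgeR adjusted p = 0.038). Its exons overlap those of the antisense transcript Hoxb3os over 953 bases. The call ended after scaling to stroma markers (−1.58, edgeR adjusted p = 0.084) and to the GFP transgene (−1.46, edgeR adjusted p = 0.31), and without Hes1-derived replicate 3, Fgfr3-derived replicate 2 or Fgfr3-derived replicate 3 (edgeR adjusted p = 0.11, 0.072 and 0.074). Hoxb5 had 0 and 0 reads in Hes1-derived against 11 and 25 reads in Fgfr3-derived libraries. Against a floor of 3 reads in each library it was at least 5.50-fold lower (edgeR adjusted p = 0.049). Its call also ended without a filter on low counts (edgeR adjusted p = 0.067), with limma on the depth-normalized values (limma adjusted p = 0.073) and after scaling to the GFP transgene (edgeR adjusted p = 0.077). It was lost as well without Hes1-derived replicate 1, Hes1-derived replicate 3 or Fgfr3-derived replicate 2 (edgeR adjusted p = 0.11, 0.16 and 0.14).

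Hoxa10 had 58.1 and 38.0 CPM in Hes1-derived against 128 and 83.6 CPM in Fgfr3-derived libraries, with no overlap, and just missed the threshold (−1.14 ± 0.30; edgeR adjusted p = 0.053). It passed with DESeq2 (−1.11, DESeq2 adjusted p = 0.0055). After scaling to stroma markers and to the GFP transgene it stood at −0.51 and −0.35 (edgeR adjusted p = 0.57 and 0.77). Hoxa9, known also for self-renewal of blood progenitors, had 22.1 and 8.26 CPM in Hes1-derived against 31.5 and 26.1 CPM in Fgfr3-derived libraries (−0.93 ± 0.44; edgeR adjusted p = 0.22). The 2 Hes1-derived libraries differed more from each other than Hes1-derived replicate 1 did from Fgfr3-derived replicate 3. Hoxa13, the position used in hand and foot, had 6 and 1 reads in Hes1-derived against 34 and 24 reads in Fgfr3-derived libraries (−2.87 ± 1.01; edgeR adjusted p = 0.11).

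Of 8 tested HoxC genes 0 passed in edgeR, where 11.8% of all genes passed in either direction. At an unadjusted p under 0.05 there were 4, against 30.1% of all genes. The 4 include Hoxc12, which passed the filter through the Fgfr3-derived libraries only. DESeq2 called Hoxc4 and Hoxc8 lower, where it called 10.9% of all genes lower. Hoxc10 had 8.09 and 4.88 CPM in Hes1-derived against 13.6 and 10.5 CPM in Fgfr3-derived libraries (−0.90 ± 0.38; edgeR adjusted p = 0.17), and some of its exon sequence is shared with the annotated Hoxc5. Hoxc9 had 8.09 and 2.46 CPM in Hes1-derived against 9.11 and 9.52 CPM in Fgfr3-derived libraries (−0.82 ± 0.55; edgeR adjusted p = 0.37). Hoxc6 had 7.30 and 4.43 CPM in Hes1-derived against 13.8 and 6.23 CPM in Fgfr3-derived libraries, which overlap (−0.77 ± 0.49; edgeR adjusted p = 0.34). Hoxc12 had 0 and 0 reads in Hes1-derived against 15 and 12 reads in Fgfr3-derived libraries, at least 4.15-fold lower, and did not pass (edgeR adjusted p = 0.057).

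Among HoxB genes, Hoxb3 had 0.79 and 0.73 CPM in Hes1-derived against 2.80 and 3.71 CPM in Fgfr3-derived libraries (−2.09 ± 0.57; edgeR adjusted p = 0.057). The exons of Hoxb3 overlap those of Hoxb3os over 2250 bases, and the strand of counting is not given. Hoxb4, which is known to expand blood stem cells when forced, had 0.75 and 0.48 CPM in Hes1-derived against 0.71 and 1.26 CPM in Fgfr3-derived libraries (−0.68 ± 0.76; edgeR adjusted p = 0.60). Hoxd8 was the only tested HoxD gene. It had 5.63 and 3.75 CPM in Hes1-derived against 6.15 and 3.10 CPM in Fgfr3-derived libraries, which overlap fully (0.020 ± 0.49; edgeR adjusted p = 0.98). With TMM scaling it was also the only tested Hox gene without a negative fold change, where 51.5% of all genes had one. The 8 Hox genes below the filter (Hoxb1, Hoxb6, Hoxb7, Hoxb9, Hoxc13, Hoxd3, Hoxd4 and Hoxd9) had between 0 and 12 reads in each library.

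**Figure D3:**
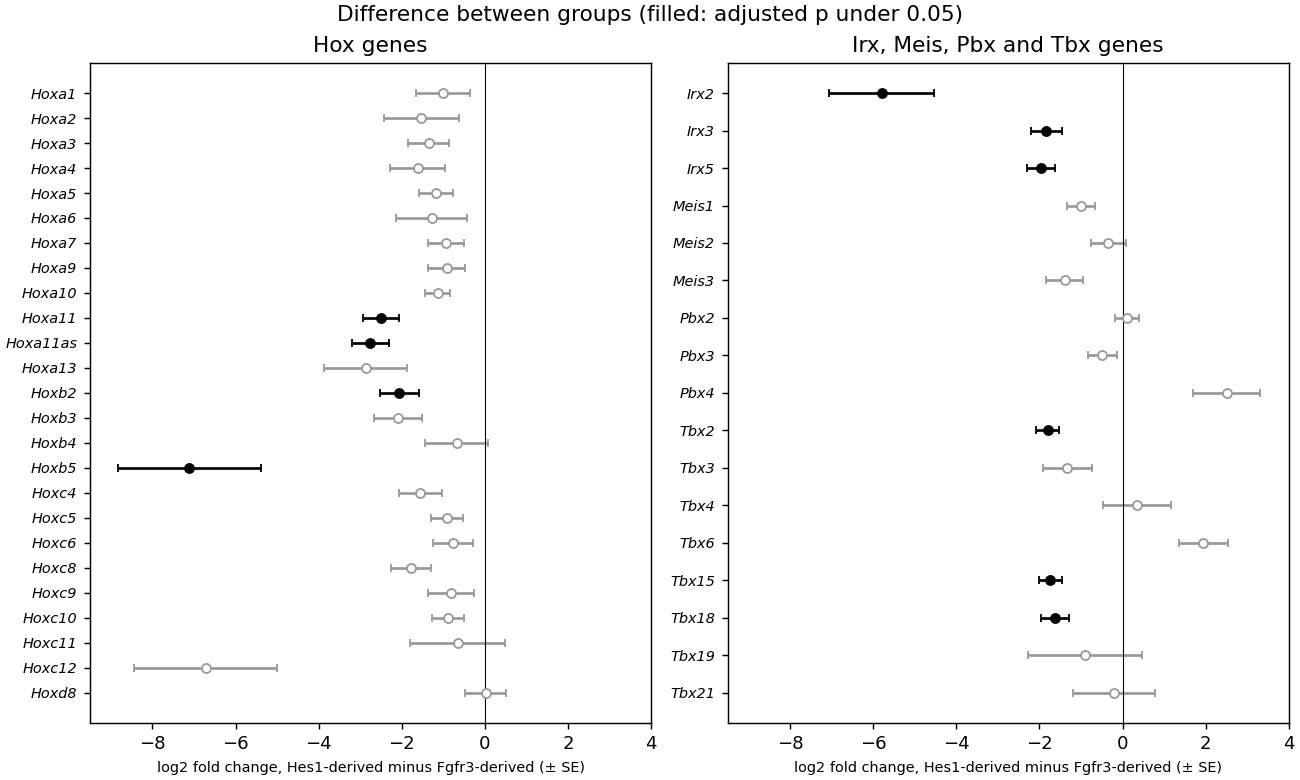
Log2 fold change (Hes1-derived minus Fgfr3-derived, with bars of ± 1 SE) of 42 of the 43 tested members, Hox genes on the left and the other families on the right. Filled points passed edgeR's test, and the 10 filled points all lie left of 0. Across all genes 6.56% were lower and 5.24% higher. Hoxb5 and Irx2, among the 10, passed the filter through the Fgfr3-derived libraries only, which set their side.

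Reads were also counted per 100 Hoxa10 reads of the same library, a measure that no scaling of libraries can change. Hoxa11 stood at 5.68 and 4.34 reads per 100 Hoxa10 reads in Hes1-derived replicates 1 and 3, against 10.4 and 17.5 in Fgfr3-derived replicates 2 and 3. Of the 20 other Hox rows that passed the filter through both groups, Hoxa11, Hoxa11as, Hoxb2, Hoxb3 and Hoxc8 were lower on this measure with no overlap of groups. These 5 stand against 4.06% of the genes that passed through both groups and 4.73% of all genes. Hoxa11 and Hoxa11as share exon bases, and Hoxb2 and Hoxb3 both overlap Hoxb3os, so the 5 may not be separate. Hoxc6, Hoxc10 and Hoxd8 were higher, against 74.5% of the genes that passed through both groups and 74.0% of all genes, and the rest overlapped. Hoxa13, Hoxb5 and Hoxc12 were lower as well, but passed the filter through the Fgfr3-derived libraries only. Hoxd8 stood at 9.69 and 9.85 per 100 Hoxa10 reads in Hes1-derived against 4.79 and 3.70 in Fgfr3-derived libraries. Hoxa7 stood at 11.7 and 9.32 in Hes1-derived against 9.15 and 9.55 in Fgfr3-derived libraries. Hoxa9 spread more, at 38.1 and 21.7 in Hes1-derived against 24.6 and 31.2 in Fgfr3-derived libraries, with its highest and lowest values both in Hes1-derived libraries. No test was made of these ratios, and Hoxa10 was taken as the base after its level was seen.

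**Figure D4:**
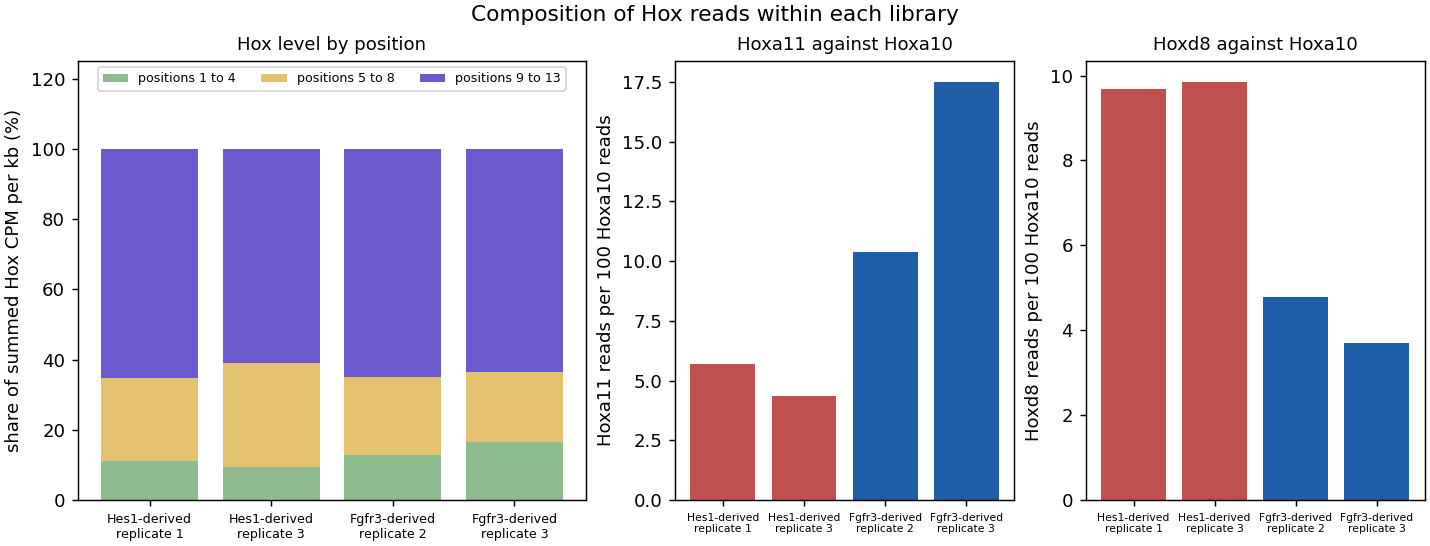
Left, share of the summed Hox level (CPM per kb, in percent) at positions 1 to 4, 5 to 8 and 9 to 13 in each library. Middle and right, reads of Hoxa11 and Hoxd8 per 100 Hoxa10 reads, with Hoxa11 lower in both Hes1-derived libraries (5.68 and 4.34 against 10.4 and 17.5 in Fgfr3-derived libraries) and Hoxd8 higher (9.69 and 9.85 against 4.79 and 3.70 in Fgfr3-derived libraries).

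Of the 24 members of the other families 18 passed the filter, and 6 were lower and 0 higher in Hes1-derived libraries: Irx2, Irx3, Irx5, Tbx2, Tbx15 and Tbx18. Across all genes 6.56% were lower and 5.24% higher. Irx2 passed the filter through the Fgfr3-derived libraries only, so its direction was set by the filter. Over the other 17 the count was 5 lower, against 6.45% of the genes that passed through both groups. At an unadjusted p under 0.05 there were 10 of the 17, against 29.4% of the genes that passed through both groups. In 10 of the 17 both Hes1-derived libraries lay below both others, against 31.7%, and in 2 both lay above, against 29.8% of all genes. Of all 18, the count lower was 1 after scaling to stroma markers, where 0.865% of all genes were lower. It was 1 after scaling to the GFP transgene, where 0.133% were. In both cases the gene was Irx2. The count also changed with some libraries left out, as did the count over all genes (ranges below).

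All 3 tested Iroquois genes were lower, of which Irx2 passed the filter through the Fgfr3-derived libraries only. Irx3 (chr8:91798525-91802067) and Irx5 (chr8:92357625-92376286) are neighbours in 1 Iroquois cluster and are needed in the mouse for the proximal and anterior skeleton of the hindlimb. Irx3 had 49.7 and 22.9 CPM in Hes1-derived against 112 and 147 CPM in Fgfr3-derived libraries and so a 3.56-fold difference (−1.83 ± 0.37; edgeR adjusted p = 0.028). It had the highest mean level per length of all members, at 18.0 and 8.30 CPM per kb in Hes1-derived against 40.5 and 53.2 CPM per kb in Fgfr3-derived libraries. Irx5 had 24.2 and 12.6 CPM in Hes1-derived against 73.3 and 69.8 CPM in Fgfr3-derived libraries (−1.96 ± 0.33; edgeR adjusted p = 0.020). Irx5 kept to Irx3 within libraries, at 48.8 and 55.0 Irx5 reads per 100 Irx3 reads in Hes1-derived against 65.5 and 47.5 in Fgfr3-derived libraries. Irx2, of the second Iroquois cluster, had 1 and 0 reads in Hes1-derived against 21 and 54 reads in Fgfr3-derived libraries. Irx2 was 69.2-fold lower in Hes1-derived libraries (95% Clopper-Pearson interval 12.1 to 2770.0, of counting error only; edgeR adjusted p = 0.032).

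Irx2 was still lower after scaling to stroma markers and to the GFP transgene (−5.41 and −5.32). It was the only member called lower under the second. Its direction was set by the filter, so no conclusion on the family is drawn from these calls. Irx3 and Irx5 passed under neither scaling, at −1.35 and −1.41 with stroma markers (edgeR adjusted p = 0.11 and 0.086) and −1.21 and −1.27 with the transgene (edgeR adjusted p = 0.38 and 0.36). Irx3 also lost its call without Hes1-derived replicate 3 (edgeR adjusted p = 0.065), and Irx2 lost its call without Hes1-derived replicate 3, Fgfr3-derived replicate 2 or Fgfr3-derived replicate 3 (edgeR adjusted p = 0.12, 0.072 and 0.14).

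Tbx15 (chr3:99240381-99354259), which shapes the limb and trunk skeleton, had 21.9 and 20.1 CPM in Hes1-derived against 86.4 and 54.4 CPM in Fgfr3-derived libraries. The groups stood well apart, by 3.34-fold (−1.74 ± 0.28; edgeR adjusted p = 0.019). Tbx2 (chr11:85832551-85841948), a repressor that responds to BMP signals in the limb, had 20.2 and 16.4 CPM in Hes1-derived against 51.3 and 75.9 CPM in Fgfr3-derived libraries and so a 3.47-fold difference (−1.80 ± 0.28; edgeR adjusted p = 0.018). Tbx18 (chr9:87702800-87731260), a factor of somites and of vessel-associated mural cells, had 4.35 and 5.96 CPM in Hes1-derived against 14.7 and 17.2 CPM in Fgfr3-derived libraries (−1.63 ± 0.34; edgeR adjusted p = 0.029), and its exons overlap an antisense transcript over 970 bases. With scaling to stroma markers the 3 values were −1.05, −1.24 and −0.97, and none passed (edgeR adjusted p = 0.23, 0.14 and 0.33). With the GFP transgene they were −0.86, −1.04 and −0.73 (edgeR adjusted p = 0.48, 0.43 and 0.56). Without Hes1-derived replicate 3 none of the 3 passed (edgeR adjusted p = 0.062, 0.055 and 0.074), and Tbx18 lost its call whichever library was left out (edgeR adjusted p = 0.086 without Hes1-derived replicate 1, 0.072 without Fgfr3-derived replicate 2 and 0.065 without Fgfr3-derived replicate 3).

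Tbx3, the close paralogue of Tbx2, had 1.19 and 0.89 CPM in Hes1-derived against 2.96 and 2.26 CPM in Fgfr3-derived libraries (−1.33 ± 0.58; edgeR adjusted p = 0.18). Tbx4 had 6.03 and 1.13 CPM in Hes1-derived against 1.66 and 3.94 CPM in Fgfr3-derived libraries, which overlap (0.35 ± 0.81; edgeR adjusted p = 0.82). Tbx21, the T-bet gene of T and natural killer cells, had 2.77 and 0.24 CPM in Hes1-derived against 1.50 and 1.99 CPM in Fgfr3-derived libraries (−0.22 ± 0.99; edgeR adjusted p = 0.91). Cd3e, a gene of the T-cell receptor complex, stood at 0.92 and 0.85 CPM in Hes1-derived against 0 and 0.69 CPM in Fgfr3-derived libraries. The 13 T and natural killer cell markers together summed to 141 and 173 CPM in Hes1-derived against 56.1 and 120 CPM in Fgfr3-derived libraries. Of 12 tested 1 was higher in edgeR and 4 in DESeq2, against 5.24% and 9.97% of all genes. The part of these cells was not tested.

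**Figure D5:**
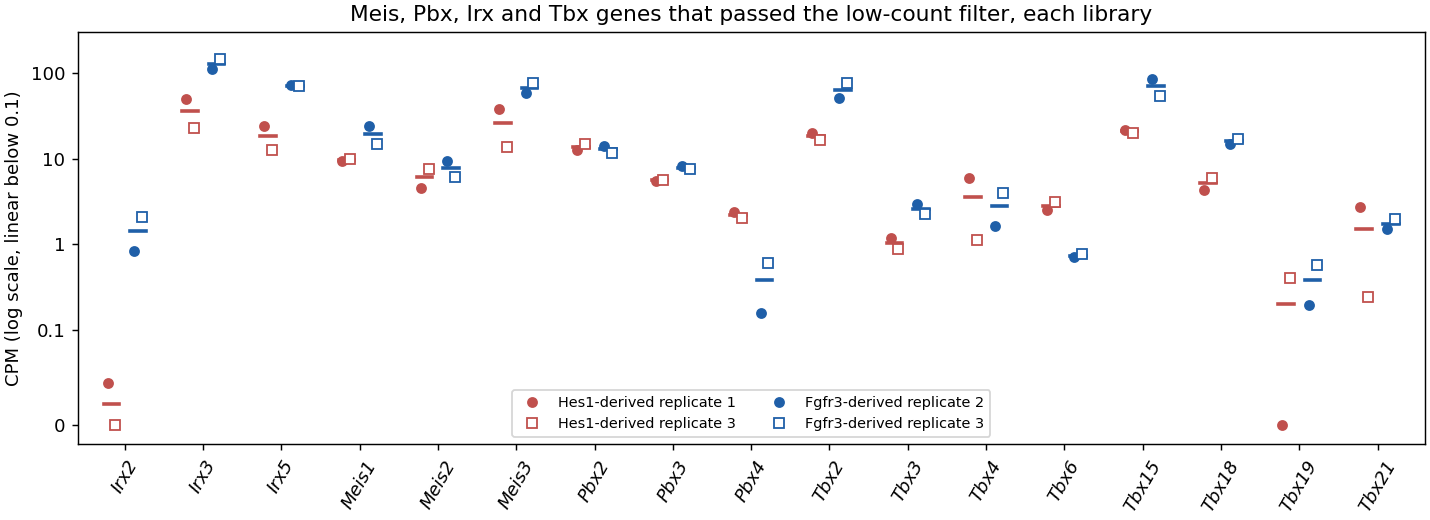
CPM (log scale, linear below 0.1) of 17 of the 18 tested Irx, Meis, Pbx and Tbx genes in every library, with Hes1-derived libraries left of Fgfr3-derived libraries and bars at the means of 2 libraries. Irx2, Irx3, Irx5, Tbx2, Tbx15 and Tbx18 are lower in both Hes1-derived libraries, Pbx4 and Tbx6 are higher, and Pbx2 overlaps.

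Of 7 tested Meis and Pbx genes, the TALE cofactors, 0 passed in edgeR, where 11.8% of all genes passed in either direction. At an unadjusted p under 0.05 there were 4 in either direction, against 30.1% of all genes. DESeq2 called Meis3 lower and Pbx4 higher, where it called 10.9% of all genes lower and 9.97% higher. Meis3 was the most abundant per length, at 12.0 and 4.36 CPM per kb in Hes1-derived against 18.4 and 24.4 CPM per kb in Fgfr3-derived libraries. It had 38.0 and 13.8 CPM in Hes1-derived against 58.3 and 77.3 CPM in Fgfr3-derived libraries, with no overlap (−1.39 ± 0.45; edgeR adjusted p = 0.085). Meis1, a cofactor in proximal limb and in blood stem cells, had 9.50 and 9.99 CPM in Hes1-derived against 24.1 and 14.8 CPM in Fgfr3-derived libraries (−0.99 ± 0.33; edgeR adjusted p = 0.095), and it stood at −0.28 after scaling to stroma markers and −0.08 to the GFP transgene (edgeR adjusted p = 0.77 and 0.95). Pbx2 had 12.7 and 15.0 CPM in Hes1-derived against 14.1 and 11.7 CPM in Fgfr3-derived libraries, which overlap (0.10 ± 0.30; edgeR adjusted p = 0.85). Pbx3 had 5.54 and 5.68 CPM in Hes1-derived against 8.24 and 7.57 CPM in Fgfr3-derived libraries (−0.49 ± 0.35; edgeR adjusted p = 0.39). Under scaling to stroma markers and to the GFP transgene Pbx3 turned positive, at 0.16 and 0.37.

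Pbx4 and Tbx6, singled out after their values were seen, went the other way. Pbx4 had 2.42 and 2.01 CPM in Hes1-derived against 0.16 and 0.61 CPM in Fgfr3-derived libraries (2.51 ± 0.81; edgeR adjusted p = 0.086). Tbx6, a factor of paraxial mesoderm in the embryo, had 2.55 and 3.14 CPM in Hes1-derived against 0.71 and 0.76 CPM in Fgfr3-derived libraries (1.94 ± 0.58; edgeR adjusted p = 0.073). Neither pair of groups overlapped. Pbx4 had 55 and 50 reads in Hes1-derived against 4 and 16 reads in Fgfr3-derived libraries. Only 1 Fgfr3-derived library thus reached the minimum count of 10, so the filter may have shaped its direction. Pbx4 and Tbx6 both passed with DESeq2 (2.54 and 1.98, DESeq2 adjusted p = 0.044 and 0.043, where 9.97% of all genes were higher) and after scaling to stroma markers (3.01 and 2.61, edgeR adjusted p = 0.028 and 0.033, where 8.19% were higher). Neither passed after scaling to the GFP transgene (3.21 and 2.83, edgeR adjusted p = 0.078 and 0.088). With limma-voom neither passed as well (2.72 and 1.92, limma adjusted p = 0.062 and 0.068). B lymphocyte markers were higher in the same libraries, in 15 of 16 tested, with sums of 2769 and 2716 CPM in Hes1-derived against 406 and 697 CPM in Fgfr3-derived libraries, and the part of these cells was not tested.

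Other limb genes were taken from lists chosen with earlier results of these data known. Of 28 tested transcription factors of limb patterning outside the 5 families 8 were lower and 1 was higher, against 6.56% and 5.24% of all genes. Their median log2 fold change was −1.49, against −0.025 for all genes. Prrx1, a marker of limb mesenchyme, had 57.6 and 36.6 CPM in Hes1-derived against 149 and 115 CPM in Fgfr3-derived libraries (−1.49 ± 0.28; edgeR adjusted p = 0.024). The genes Twist1 (−1.71 ± 0.32) and Dlx5 (−1.50 ± 0.29) were also lower (edgeR adjusted p = 0.024 and 0.025). Alx1, counted among the 8, had no reads in Hes1-derived libraries, against 2.92 and 1.68 CPM in Fgfr3-derived libraries. It was at least 18.2-fold lower (edgeR adjusted p = 0.020), but passed the filter through the Fgfr3-derived libraries only, which set its direction. Genes that passed through a single group were not set apart in the counts of this list. Satb1, a chromatin organizer of lymphocytes, was higher, at 36.1 and 47.3 CPM in Hes1-derived against 17.5 and 16.6 CPM in Fgfr3-derived libraries (1.29 ± 0.25; edgeR adjusted p = 0.025). After scaling to stroma markers Prrx1, Twist1 and Dlx5 did not pass (edgeR adjusted p = 0.33, 0.17 and 0.34), and with the GFP transgene neither these nor Satb1 did (edgeR adjusted p = 0.55, 0.43, 0.56 and 0.078). Without Hes1-derived replicate 3 the calls of Prrx1, Twist1, Dlx5 and Satb1 ended (edgeR adjusted p = 0.089, 0.077, 0.098 and 0.12). Without Fgfr3-derived replicate 2 those of Alx1, Prrx1, Dlx5 and Satb1 ended (edgeR adjusted p = 0.080, 0.065, 0.068 and 0.070).

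Of 21 tested limb signals and their receptors 7 were lower and 0 higher, against 6.56% and 5.24% of all genes. Their median log2 fold change was −1.05, against −0.025 for all genes. They included the retinoic acid enzyme gene Aldh1a3 (−2.01 ± 0.29), the receptor Rarg (−1.33 ± 0.27), Bmp2 (−1.75 ± 0.26), and the Hedgehog co-receptor gene Gas1 (−1.15 ± 0.23), with edgeR adjusted p between 0.016 and 0.028. After scaling to stroma markers Aldh1a3, Rarg, Bmp2 and Gas1 did not pass (edgeR adjusted p = 0.12, 0.40, 0.22 and 0.58), nor did they with the GFP transgene (edgeR adjusted p = 0.40, 0.63, 0.47 and 0.79). Rarg and Gas1 also lost their calls without Hes1-derived replicate 3 (edgeR adjusted p = 0.13 and 0.13) or Fgfr3-derived replicate 2 (edgeR adjusted p = 0.073 and 0.080), and Gas1 without Hes1-derived replicate 1 (edgeR adjusted p = 0.051). Of 27 tested chromatin regulators of Hox clusters 1 was lower and 1 higher in edgeR, against 6.56% and 5.24% of all genes, and the median was −0.14. At an unadjusted p under 0.05 there were 11 in either direction, against 30.1% of all genes. DESeq2 called 2 lower and 4 higher, where it called 10.9% of all genes lower and 9.97% higher. Bmi1, a subunit of Polycomb complex PRC1, had 45.3 and 43.4 CPM in Hes1-derived against 120 and 73.7 CPM in Fgfr3-derived libraries (−1.13 ± 0.27; edgeR adjusted p = 0.042). Ezh2, the methyltransferase of PRC2 and a gene of dividing cells, had 121 and 157 CPM in Hes1-derived against 71.8 and 67.4 CPM in Fgfr3-derived libraries (1.00 ± 0.22; edgeR adjusted p = 0.032). Bmi1 did not pass after scaling to stroma markers or to the GFP transgene (edgeR adjusted p = 0.63 and 0.84), and neither passed without Hes1-derived replicate 3 (edgeR adjusted p = 0.16 and 0.17) or Fgfr3-derived replicate 2 (edgeR adjusted p = 0.14 and 0.081). Bmi1 was also lost without Hes1-derived replicate 1 (edgeR adjusted p = 0.099), and Ezh2 without Fgfr3-derived replicate 3 and with the GFP transgene (edgeR adjusted p = 0.052 and 0.14). Of 6 further genes of TALE factors and their partners 0 passed in edgeR, with 2 at an unadjusted p under 0.05, against 30.1% of all genes. DESeq2 called 2 lower, where it called 10.9% of all genes lower. Of 2 tested T-box genes outside the Tbx symbols 0 passed in edgeR, with 1 at an unadjusted p under 0.05, and DESeq2 called 0.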

How the data were processed

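RNA from sorted femur cells was sequenced for 2 groups of 2 libraries. Per the submitters' processing notes reads were handled with TopHat2 2.0.13 and Bowtie2 2.2.1 on build mm10, and HTSeq, Cufflinks, Cuffdiff, DESeq2 and FastQC were also named; their settings and the strand of counting are not given in the sources used here. The authors deposited raw read counts per gene symbol, which were used for every test. They also deposited depth-normalized signal values, which equalled the counts times 1 factor per library (largest relative deviation 5e-15), and a table of rlog values, which was not used here.

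Counts were fitted in edgeR 4.0.16 (R 4.3.3; quasi-likelihood F test, robust, TMM factors, filterByExpr with a minimum count of 10) across 14330 of 17230 genes, which kept at least 99.957% of reads, with Benjamini-Hochberg adjustment and a threshold of 0.05. The common biological coefficient of variation was 27.8%. On data simulated from these libraries for this comparison (14073 genes), a 2-fold change was found in 13 of 100 genes and a 4-fold change in 69 of 100 by edgeR, which also made 18 wrong calls. Alternatives were DESeq2 1.42.0, limma 3.58.1 (voom, and log2 of the depth-normalized values plus a pseudocount of 1), other scalings and filters, and each library left out. Exon lengths, positions and overlaps came from GENCODE M21, in which 16958 of 17230 symbols were matched. The Clopper-Pearson interval and the floors of 3 reads cover counting error only.

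Members and gene lists were chosen with earlier results of these data known. Named were the members called, the most abundant per length of each cluster (3) and family (2), and up to 5 called genes per list and direction. Hoxa13, Hoxc12, Pbx4, Pitx1, Tbx3, Tbx4, Tbx5, Tbx6, Tbx21 and Cd3e were named after their values were seen. Some genes of the families and lists are counted but not reported by name here.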

Additional observations from a re-analysis of the deposited data

How the results depend on the processing

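The count of Hox rows (Hoxa11as included) lower in Hes1-derived libraries, 4 with edgeR and TMM, became 8 with DESeq2, 9 at an adjusted p of 0.10 and 0 after scaling to the GFP transgene, and ranged from 0 to 5 with a library left out. No setting called a Hox gene higher. Of the Meis, Pbx, Irx and Tbx genes 6 were lower, with 1 after scaling to stroma markers, 1 after scaling to the transgene and 1 to 6 with a library left out. Of these families 0 were higher, with 2 after scaling to stroma markers, 2 with DESeq2, 1 at a minimum count of 50 and 2 at an adjusted p of 0.10, and 0 with any library left out. The median log2 fold change of the tested Hox genes, −1.28, became −0.76 with stroma markers and −0.62 with the transgene, where the median of all genes stood at 0.62 and 0.83, and lay between −1.80 and −0.96 with a library left out. Across all genes 751 were higher and 940 lower. These counts became 1174 and 124 with stroma markers, 324 and 19 with the transgene, 1429 and 1557 with DESeq2, and 1411 and 1664 at an adjusted p of 0.10. With a library left out they ranged from 183 to 1225 and from 181 to 998. Leaving out a library leaves 1 in its group, which is then assumed to vary like the other group.

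Of 794 values of 54 single genes under the alternatives, 678 kept direction and call, 73 lost the call, 24 gained it and 19 changed sign. Scaling to stroma markers turned Meis2 to 0.42, Pbx3 to 0.16 and Tbx21 to 0.13. Scaling to the transgene turned Hoxc6 to 0.036, Meis2 to 0.67, Pbx3 to 0.37, Tbx19 to 0.13 and Tbx21 to 0.14, and limma-voom turned Tbx4 to −0.0066. With a library left out the ranges were −3.70 to 0.27 for Hoxc11, −0.35 to 0.61 for Hoxd8, −0.75 to 0.010 for Meis2, −0.019 to 0.26 for Pbx2, −6.28 to 0.060 for Tbx19, −2.83 to 0.67 for Tbx21 and −1.31 to 1.14 for Tbx4. Scaling to another sum moves all genes by 1 factor per library; the cause of the other changes was not tested. No paired analysis was possible because the groups share only 1 replicate number (3). Genes with few reads in every library, such as Hoxd9 and Tbx5, could not be compared at this depth.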
